A study of Homo sapiens with 2 samples.

Results

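The genes of matriptase and of the proteases and inhibitors around it were read on arrays of H9 cells, an established human embryonic stem cell line, in substate 1 and in substate 2. The 10 genes were those of 4 membrane-bound serine proteases (ST14, PRSS8, TMPRSS2 and HPN), of the protease inhibitors SPINT1, SPINT2 and SPINK5, and of tissue factor (F3) with TFPI and TFPI2. They were found by the RefSeq accession that the array design gives for a probe. This gave 13 of the 58201 non-control probes and 10 of the 22439 genes with a named probe, and all 10 were among the 16001 genes with a probe well above background on both arrays (called measured here). SPINK5 had been chosen for its lower signal and TFPI for its higher signal in substate 2 on these same arrays, so the differences of the members are given as a description and none of them was tested.

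One array held RNA of substate 1 cells at passage 35 and one held RNA of substate 2 cells at passage 50, so passage and substate cannot be told apart. Per the paper, H9 cells kept in TeSR-E8 medium on vitronectin were moved to Matrigel, a basement membrane extract, at passage 35. The paper stained the substates in cells on Matrigel but does not state the matrix of the cultures used for these arrays. The study defined substate 1 by strong staining for the R-10G epitope without vimentin, and substate 2 by weak R-10G staining with vimentin in colonies with wide intercellular spaces. With 1 array per substate nothing here is checked by a replicate, and every difference is one between 2 bulk RNA samples, in which fewer cells of a type and less RNA per cell cannot be told apart. Of the 60901 non-control spots on each array, 57.4% were well above background for substate 1 and 54.7% for substate 2. VIM (vimentin) differed in the labelled direction, with a spot signal of 2802 ± 280 in substate 1 and 14157 ± 1416 in substate 2, and CDH1 (E-cadherin) had 9463 ± 299 and 2993 ± 94.7. All 8 pluripotency markers with a named probe were measured, and 0 of them were past 2-fold. Few genes of any kind were, since 1.77% of all named genes above background on either array had a probe 2-fold or more higher and 1.6% one lower.

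Matriptase, the product of ST14, is a transmembrane serine protease of epithelial cells, where it works at the cell surface together with the membrane-anchored protease prostasin. A pair of transmembrane inhibitors with Kunitz domains, encoded by SPINT1 and SPINT2, holds both enzymes in check. Tissue factor starts blood clotting. TFPI, also a Kunitz inhibitor, blocks that step by binding factor Xa and the complex of tissue factor with factor VIIa.

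The genes lie apart in the genome, except that HPN and SPINT2 are both on chromosome 19. For 6 of the 10 genes RefSeq promoter sequences of 300 bases (250 before the annotated start and 50 after it, GRCh38.p14) were at hand. None was at hand for ST14, PRSS8, SPINT2 and TMPRSS2, which were not searched. The sequences found came to 7 windows. These windows were searched on both strands for CACCTG, the E-box bound by ZEB1 and related repressors, and for AACCGGTT, a site of the epithelial grainyhead factors. ZEB1 itself had a higher signal in substate 2, with log2 differences of 2.41 ± 0.21 and 2.67 ± 0.30 for its 2 probes. Any part of ZEB1 in the differences of the members was not tested. The E-box was found at least once in 20.6% of the 35116 promoters in the table and AACCGGTT in 0.134%. These shares do not show how often a promoter held the E-box 3 times. Among the 7 member windows, that of HPN held the E-box 3 times, starting 167, 84 and 2 bases before the start. Of the 2 SPINT1 windows 1 held it once, 26 bases before the start. The windows of F3, TFPI, TFPI2 and SPINK5 and the other SPINT1 window held no E-box, and AACCGGTT was in none of the member windows. The sequences printed here run 5′ to 3′ from 150 bases before the start to 10 after it, which leaves out the most distant HPN match, and are shown for the members with an E-box and for the genes with the largest differences in either direction, with the E-box in capitals:
HPN (GRCh38.p14, chr19:35041571-35041730, plus strand): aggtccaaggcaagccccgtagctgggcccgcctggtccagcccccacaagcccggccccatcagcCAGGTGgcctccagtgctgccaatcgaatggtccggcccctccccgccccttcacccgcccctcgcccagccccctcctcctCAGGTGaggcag
SPINT1 (GRCh38.p14, chr15:40844327-40844486, plus strand): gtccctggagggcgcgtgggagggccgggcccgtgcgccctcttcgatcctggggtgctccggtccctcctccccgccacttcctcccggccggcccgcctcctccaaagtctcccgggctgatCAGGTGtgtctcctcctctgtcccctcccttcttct
SPINK5 (GRCh38.p14, chr5:148063830-148063989, plus strand): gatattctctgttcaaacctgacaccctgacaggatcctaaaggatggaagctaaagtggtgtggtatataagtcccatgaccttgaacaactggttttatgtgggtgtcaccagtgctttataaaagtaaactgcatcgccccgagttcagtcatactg
TFPI (GRCh38.p14, chr2:187554426-187554585, minus strand): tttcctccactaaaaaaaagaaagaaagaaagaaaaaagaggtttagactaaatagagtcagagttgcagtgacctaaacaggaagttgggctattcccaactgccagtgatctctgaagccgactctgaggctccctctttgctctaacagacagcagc

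A match of these letters is a description of the sequence and not evidence of binding. The windows of SPINK5 and TFPI shared a low content of CG dinucleotides, with 4 each, where the median of all promoters was 14 and the lower quartile 4. HPN had 12, TFPI2 had 26, F3 had 38 and the SPINT1 windows had 38 and 25.

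All 4 membrane proteases had a lower signal in substate 2. Each was measured by 1 probe with 1 spot on each array, and the errors given with the signals are those that the scanner software assigned to the spot. ST14 had a signal of 1012 ± 101 in substate 1 and 450.4 ± 45.2 in substate 2. Once each array had been centred on its 75th percentile, the normalised log2 signals were 1.69 and 0.71, a difference of -0.98 ± 0.20 or 1.97-fold lower. The error of a difference combines the errors of both spots and covers neither the cells nor the labelling. PRSS8, which encodes prostasin, read 30906 ± 3091 and 14801 ± 1480, so that its difference of -0.87 ± 0.20 (1.83-fold lower) was close to that of ST14. HPN encodes hepsin, a transmembrane protease best known from liver. It had the largest difference of the proteases, with 601.5 ± 60.2 in substate 1 and 239.4 ± 24.1 in substate 2, 2.21-fold lower and a difference of -1.14 ± 0.20. TMPRSS2, a transmembrane protease known for the priming of viral surface proteins, had 263.4 ± 26.6 and 149.3 ± 15.4, a difference of -0.63 ± 0.21 or 1.55-fold lower. In all 4 cases the difference was between 3.0 and 5.6 times the scanner error.

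**Figure D1:**
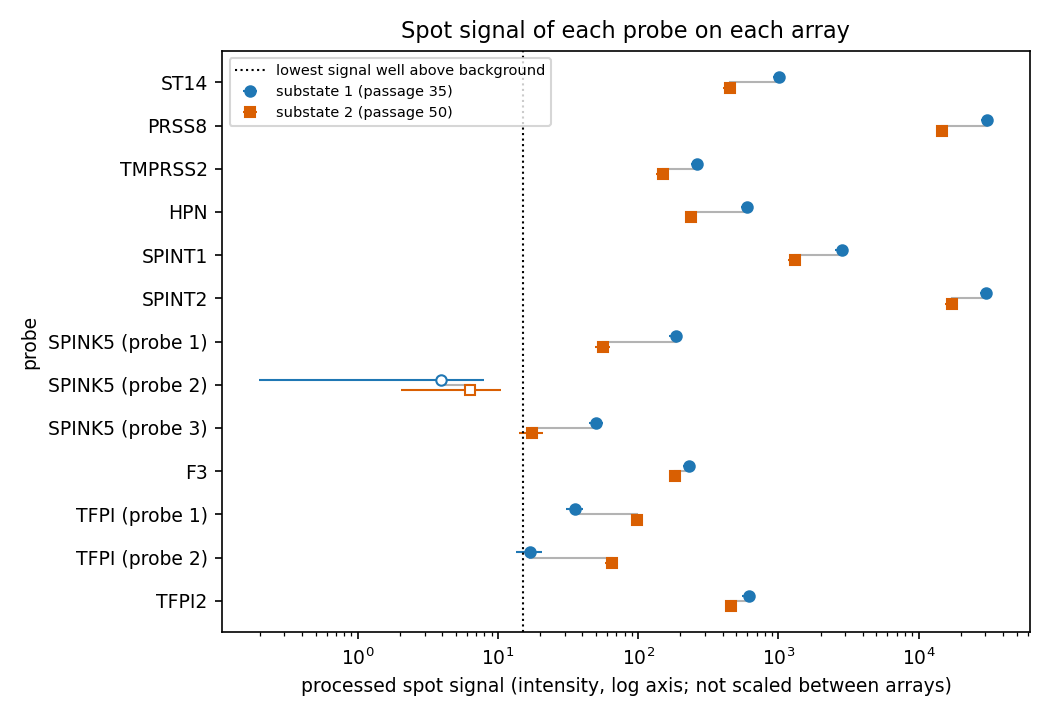
Processed spot signal (intensity on a log axis, before scaling between arrays) of the 13 probes on the substate 1 array (blue circles) and the substate 2 array (orange squares), with the scanner error as bars, and open symbols for the probe near background on both arrays, whose lower bars are cut to stay on the axis. Both TFPI probes lie further right in substate 2, whereas the other 10 probes above background lie further left, and 1 TFPI probe and 1 SPINK5 probe come close to the lowest signal that counts as well above background.

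The inhibitors of these proteases were lower as well. SPINT1, the gene of the inhibitor HAI-1, had a signal of 2837 ± 284 in substate 1 and 1308 ± 131 in substate 2, which gives a difference of -0.93 ± 0.20 or 1.90-fold lower. SPINT2, the gene of HAI-2, had 30244 ± 3024 and 17227 ± 1723, a difference of -0.62 ± 0.20 or 1.54-fold lower. The inhibitor genes therefore had lower signals on the same array as the proteases that their products bind.

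A constant shift of an array cancels in the ratio of members, so the differences of proteases and inhibitors were also set against each other, for 15 pairs of genes in all. The difference of ST14 minus that of SPINT1 was -0.05 on the log2 scale, with a 95% interval from the scanner error of -0.62 to 0.51. Loess and quantile normalisation, which shift bright and dim probes unequally, brought it to -0.01. For PRSS8 against SPINT1 it was 0.05 (-0.51 to 0.62), and for PRSS8 against SPINT2 it was -0.25 (-0.82 to 0.32). The widest gap between a protease and a Kunitz inhibitor of this group was that of HPN against SPINT2, at -0.52 (-1.08 to 0.05). Each of these intervals includes 0 and reaches past 0.5 in at least one direction. Their width comes from the error that the scanner software assigned, which is larger than the spread between repeated spots on these arrays (an SD of 0.07 for a difference between single spots).

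SPINK5 encodes LEKTI, a secreted inhibitor with many Kazal domains that restrains the kallikrein proteases of the epidermis. Of its 3 probes 2 were measured on both arrays. The probe for NM_006846 had a signal of 186.3 ± 19.0 in substate 1 and 56.1 ± 6.85 in substate 2, and thus a difference of -1.54 ± 0.23 or 2.92-fold lower. The probe for NM_001127698 had 50.3 ± 5.79 and 17.6 ± 3.45, a difference of -1.33 ± 0.33 or 2.51-fold lower. Both measured probes were lower in substate 2, and the gap of 0.21 between their differences was inside its error of 0.40. The remaining probe, for NM_001127699, was near background on both arrays, with 3.95 ± 3.96 and 6.29 ± 4.26, and gives no fold. The mean difference of the 2 measured probes was -1.44 ± 0.20, and 36 of the 16001 measured genes lay lower. SPINK5 had been chosen for its fall on these arrays, which made both probe differences and this rank likely beforehand. Background correction by normexp with an offset of 50, which compresses dim signals, brought the mean difference to -0.60. It was run on the median spot intensity, so the input differed from that of the main values as well.

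TFPI was the only one of the 10 genes with a higher signal in substate 2. Its probe for NM_001032281, the transcript of the membrane-anchored beta form, had a signal of 35.4 ± 4.75 in substate 1 and 98.6 ± 10.4 in substate 2, for a difference of 1.67 ± 0.25 or 3.17-fold higher. Its probe for NM_006287, the transcript of the secreted alpha form, had 17.0 ± 3.60 and 65.0 ± 7.35, a difference of 2.12 ± 0.35 or 4.35-fold higher. The probes differed from each other by 0.45 with an error of 0.42, and an accession does not show that a probe reads 1 form only. For both probes the arrays did not overlap within the scanner error, which the choice of TFPI for its rise made likely beforehand. The mean difference was 1.89 ± 0.21 (3.71-fold higher), and 18 of the 16001 measured genes lay higher. In substate 1 both signals were low, since the lowest signal that counted as well above background on that array was 14.5, and normexp correction reduced the mean difference to 0.94.

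The differences of F3 and TFPI2 were smaller. F3 (tissue factor) had a signal of 231.6 ± 23.4 in substate 1 and 183.4 ± 18.7 in substate 2, and its difference of -0.15 ± 0.21 was smaller than its error. TFPI2, whose product is a Kunitz inhibitor of plasmin and other proteases in the extracellular matrix, had 614.8 ± 61.6 and 460.7 ± 46.2, a difference of -0.23 ± 0.20. The difference of F3 minus that of TFPI was -2.04, with a 95% interval from the scanner error of -2.62 to -1.46, and the ratio of F3 to TFPI signal was 4.12-fold lower in substate 2. Under normexp correction that gap was -1.03. TFPI and TFPI2, despite their related Kunitz domains, were 2.12 apart on the log2 scale (1.54 to 2.70). Since TFPI had been chosen for its rise on these same arrays, wide gaps to it were given by that choice. The intervals cover the spot error only, and nothing is read from them.

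**Figure D2:**
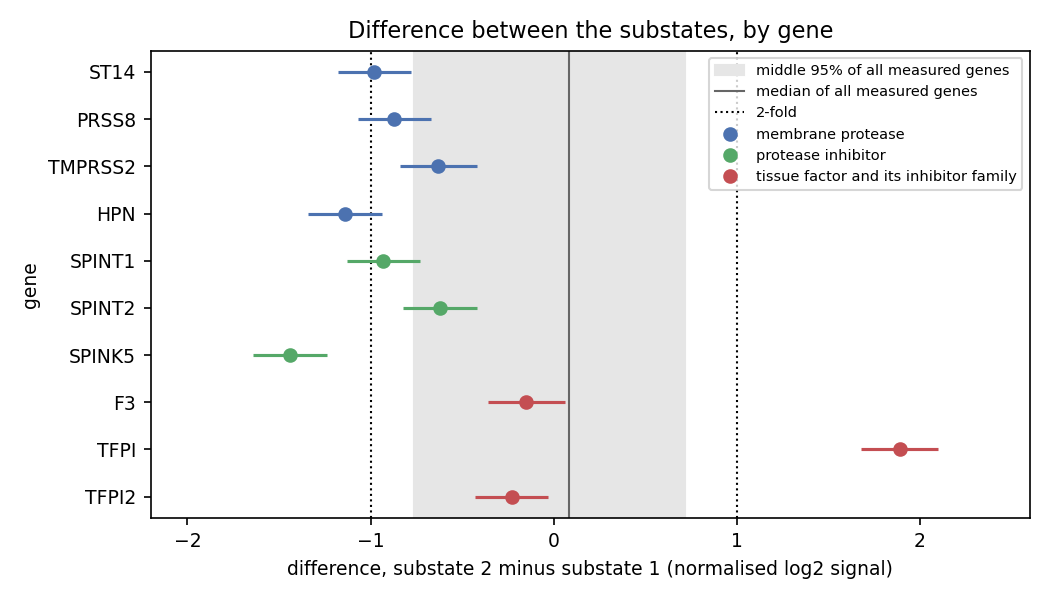
Difference of the normalised log2 signal, substate 2 minus substate 1, for the 10 genes, with the scanner error as bars, the middle 95% of all 16001 measured genes in grey and dotted lines at 2-fold. SPINK5, HPN, ST14, SPINT1 and PRSS8 lie to the left of the grey band, TFPI lies to the right of it, and TMPRSS2, SPINT2, F3 and TFPI2 lie inside it.

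Among all genes measured on both arrays the median difference was 0.08, and 95% of the genes lay between -0.77 and 0.72. The 10 members had a median of -0.75. Leaving out SPINK5 and TFPI, the lowest and the highest of them, cannot change a median and is no check of it. Of the 10 members 9 were below 0, where 40.2% of all measured genes were, and 7 were lower by 1.5-fold or more, where 5.03% of all measured genes were. TFPI was the 1 member higher by 1.5-fold or more, where 4.32% of all measured genes were. Since the genes were chosen with results of these arrays known, nothing is read from these counts. Placed in the order of all measured genes, 109 genes lay lower than HPN, 183 lower than ST14, 230 lower than SPINT1 and 271 lower than PRSS8. TMPRSS2 and SPINT2 stood further in, with 681 and 699 genes below them, while F3 and TFPI2 were at 25.6% and 19.2% of the order.

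By a fixed size of 2-fold, taken over probes that stood well above background on either array, 3 of the 12 such member probes were lower (HPN and both measured SPINK5 probes), where 1.67% of the 33166 probes were. The 2 TFPI probes were higher, where 1.55% of all were. The probes just outside the limit were ST14 (1.97-fold), SPINT1 (1.90-fold) and PRSS8 (1.83-fold), and HPN at 2.21-fold lay just inside it. The difference of HPN minus that of ST14 was -0.16 (-0.73 to 0.41), so that a spot on each side of the limit could not be told from the other by the scanner error. After loess centring ST14 (-1.03), SPINT1 (-1.02) and PRSS8 (-1.05) passed the limit too, which made 6 lower probes where 1.87% of all probes were lower. Quantile normalisation also gave 6, where 1.51% of all were. Under normexp correction ST14 (-1.01) was the 1 lower probe left, where 0.19% of all were, with HPN at -0.98 and SPINK5 at -0.60. The study used a Z-score, which measures in SDs how far a probe's difference lies from the average probe, with limits of 2 in either direction. It called 2 of the 13 member probes lower, both of SPINK5 (-2.56 and -2.22), where 3.3% of all probes were called, and 2 higher, both of TFPI (2.52 and 3.24), where 3.03% were. HPN had a Z-score of -1.92 and ST14 one of -1.66, as the limit lay at 2.29-fold lower. When the mean and SD were taken from probes well above background on both arrays, 6 member probes were called lower, where 3.04% of those 29883 probes were. Nothing is read from these counts either.

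**Figure D3:**
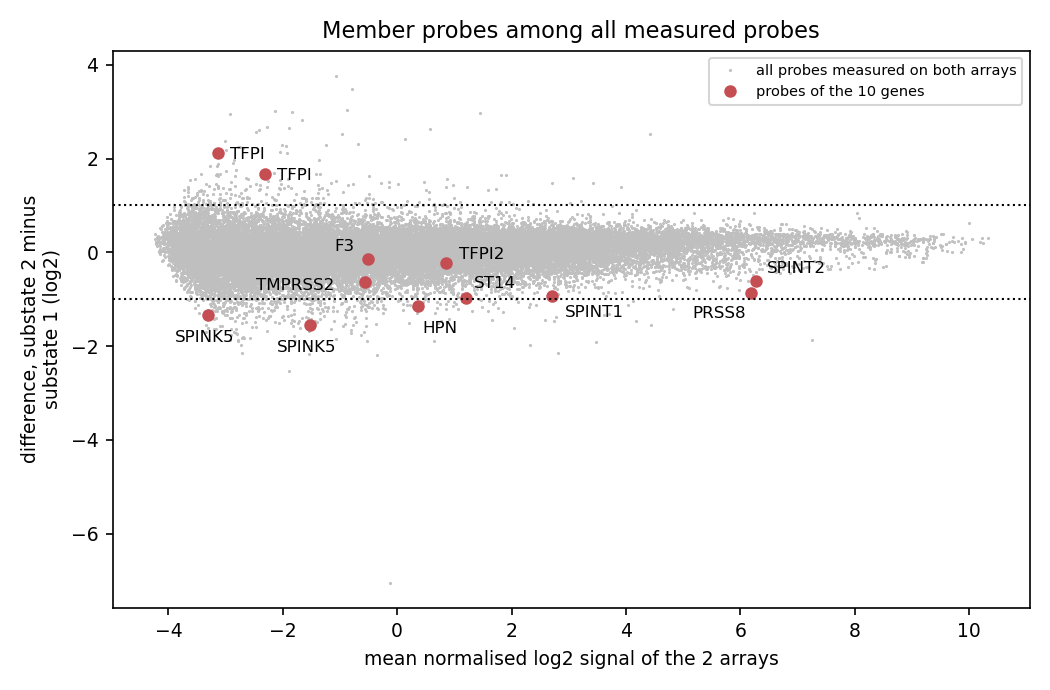
Difference (log2, substate 2 minus substate 1) against the mean normalised log2 signal of the 2 arrays for the 29883 probes measured on both arrays in grey and for the 12 member probes in red, with dotted lines at 2-fold. The TFPI probes and 1 SPINK5 probe lie in the dim range where grey points spread widely, whereas PRSS8, SPINT2 and SPINT1 lie at bright signals near the lower edge of a narrow grey band.

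The wider network of these enzymes was described with 7 lists of 101 related genes in all, of which 55 were measured on both arrays and 63 had a probe well above background on either array. Of the 63 genes, 2 had a probe 2-fold or more higher and 4 had one 2-fold or more lower. Over all named genes with a probe above background on either array, 1.77% had a higher and 1.6% a lower probe of that size. The median of the 55 genes was -0.12, against 0.08 over all measured genes.

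The list nearest to the membrane proteases held substrates of matriptase, prostasin and hepsin with the receptors of those substrates. Of its 13 genes 10 were measured, with 8 below 0 and a median of -0.58. Over all measured genes 40.2% were below 0 and the median was 0.08. The list was chosen with earlier results of these data known, so nothing is read from its count or median. Of the list, MST1 and F2RL1 were 2-fold or more lower. MST1 encodes the precursor of macrophage-stimulating protein, and F2RL1 encodes the protease-activated receptor PAR2. MST1 had a signal of 2331 ± 233 in substate 1 and 907.1 ± 90.8 in substate 2, and thus a difference of -1.17 ± 0.20, and a nearly identical gene copy may share its probe. F2RL1 had 914.0 ± 91.5 and 362.7 ± 36.5, a difference of -1.15 ± 0.20. The other measured genes of this list were chosen for mention after their values had been seen. Differences were -0.80 for EPCAM (epithelial cell adhesion molecule), -0.71 for SCNN1A (a subunit of the epithelial sodium channel), -0.62 for CDCP1, -0.53 for PLAU (urokinase), -0.53 for MET (the receptor of hepatocyte growth factor) and -0.38 for MST1R (the receptor of macrophage-stimulating protein). Those above 0 were 0.40 for HGFAC, the activator of hepatocyte growth factor, and 0.44 for PLAUR, the urokinase receptor. HGF itself and the channel subunits SCNN1B and SCNN1G were near background on both arrays.

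The other transmembrane serine proteases were mostly at background level, as 12 of the 15 genes on that list were near background on both arrays. TMPRSS13 was at least 2.38-fold lower by 1 probe that was well above background in substate 1 only (40.8 ± 5.29 against 14.1 ± 3.92), and its other probe, dimmer still, gave no fold. TMPRSS6, the regulator of iron uptake, was measured on both arrays with a difference of 0.32 ± 0.32. Among the other membrane-tethered proteases PRSS22 was lower, with 71.5 ± 7.98 and 29.8 ± 4.84 and a difference of -1.07 ± 0.28, whereas PRSS27 (-0.30) and TPSG1 (0.32) were inside 2-fold.

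The kallikreins, which LEKTI inhibits, had 9 of 15 genes measured on both arrays, a median of -0.20 and 0 genes past 2-fold. Of the kallikreins known as targets of LEKTI, KLK5 differed by -0.03 ± 0.22 and KLK7 by -0.40 ± 0.22, and KLK14 had 34.8 ± 4.50 and 15.3 ± 3.34, 1.997-fold lower with an error of 0.37 on the log2 difference, just short of the limit. These 3 were picked after their values had been seen. KLK8 differed by -0.20. The other Kunitz and Kazal inhibitors had a median of -0.14 over 7 measured genes and 0 past 2-fold. Both probes of APP (-0.28 and -0.30), that of its relative APLP2 (-0.14) and that of SPINK7 (0.39) had small differences beside those of SPINT1 and SPINK5. The serpins, suicide inhibitors of serine proteases, had a median of 0.08 over 10 measured genes and 0 past 2-fold, with SERPINB1 at -0.09, SERPINE2 at -0.49 and SERPINB6 at 0.02. SERPINF2, named after its value had been seen, had 20.9 ± 3.91 and 36.6 ± 5.18, 1.99-fold higher and just short of the limit.

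The coagulation list had a median of 0.02 over 15 measured genes, which turned to -0.03 under quantile normalisation and -0.07 under loess centring. F10, which encodes the factor X that TFPI blocks in its active form, had a signal of 72.5 ± 8.30 in substate 1 and 172.7 ± 17.7 in substate 2, for a difference of 1.44 ± 0.22. F7, the partner of tissue factor, named after its value had been seen, differed by -0.26 ± 0.24. PLAT, the gene of tissue plasminogen activator, had 386.0 ± 12.3 and 694.1 ± 23.2 over its repeated spots, a difference of 1.04 ± 0.07. VKORC1 (0.09) and PROCR (-0.12), which serve the activation of clotting factors and of protein C, were inside 2-fold.

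**Figure D4:**
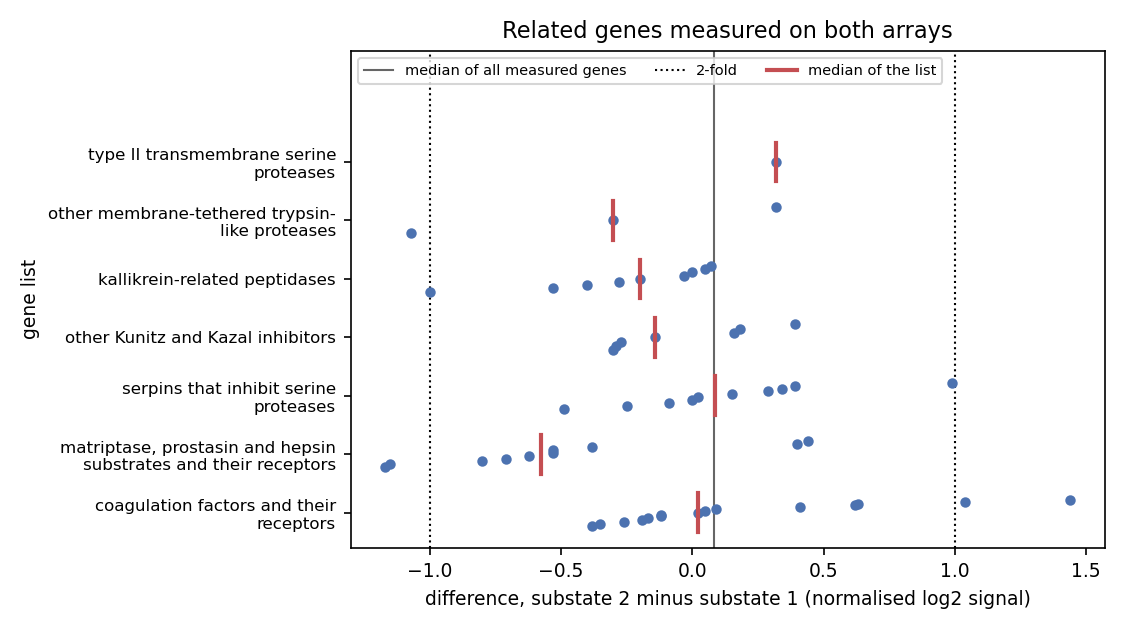
Difference of the normalised log2 signal, substate 2 minus substate 1, of the related genes measured on both arrays (points, 1 per gene) in each of the 7 lists, with the list's median in red, the median of all measured genes in grey and dotted lines at 2-fold. The list of substrates and their receptors has its median at -0.58, and F10 and PLAT lie to the right of the 2-fold line.

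Since several members are best known from other cell types, the markers of those types were read on the same arrays. Beside TFPI, which endothelial cells make, 6 of 8 endothelial genes had a value on each array with a median difference of 0.01. Negative differences were those of TEK (-0.93), KDR (-0.71) and VWF (-0.03), and positive ones those of CLDN5 (0.05), CDH5 (0.32) and TIE1 (0.50). PECAM1 and ERG were near background on both arrays. The summed signal of the list, 2241 in substate 1 and 1436 in substate 2, was largely KDR (1250 and 669.1) and TEK (461.1 and 211.8). The sums given here are of spot signals not scaled between arrays. Beside SPINK5, the keratinocyte genes KRT5, KRT14, KRT1, TP63 and IVL were near background on both arrays, and the summed signal of the list, 7401 and 8588, was nearly all KRT10 (7329 and 8523). Beside HPN, of 7 liver genes HNF4A, APOB and CYP3A4 were near background, and the summed signal was 478.8 and 520.6. The 4 measured ones differed by 0.18 (ALB), 0.39 (APOA1), 0.42 (TTR) and 0.34 (SERPINA1). Beside TFPI2, which the placenta makes, of 7 trophoblast genes GATA3, HAND1 and ERVW-1 were near background. By 1 dim probe each, CGA was at least 2.12-fold higher and GCM1 at least 1.49-fold lower. KRT7 and CGB3 differed by 0.16 and 0.18, and the summed signals of 3150 and 3119 were nearly all KRT7 (3039 and 2988). The fibroblast genes DCN, LUM, COL3A1 and FAP were near background on both arrays, and 3 of 7 genes were measured. COL1A1 differed by -0.49, COL1A2 by -0.50 and PDGFRA by 0.65. The summed signal of that list, 4227 and 2651, was nearly all COL1A2 (3207 and 1992) and COL1A1 (987.0 and 618.1). The part of any such cells in the members' differences was not tested.

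**Figure D5:**
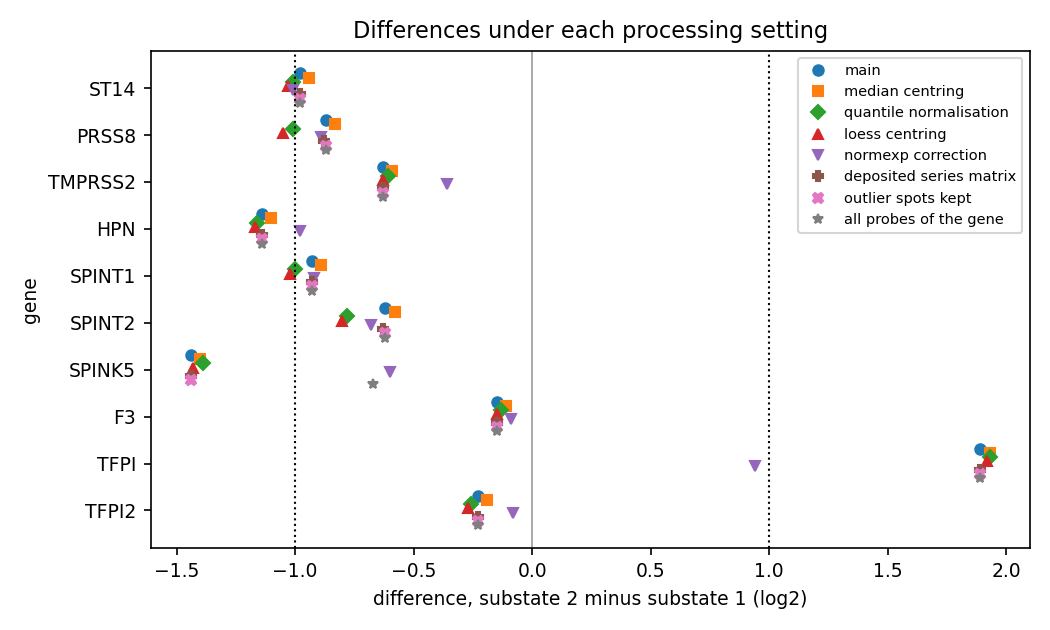
Difference (log2, substate 2 minus substate 1) of the 10 genes under the 8 processing settings, 1 symbol per setting, with dotted lines at 2-fold. The sign of each gene is the same under all 8 settings, several of which could hardly move these values. Normexp correction moves TFPI and SPINK5 furthest towards 0, and ST14, SPINT1 and PRSS8 cross the 2-fold line with the choice of scaling.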

How the data were processed

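RNA of 2 cultures was hybridised to 1-colour Agilent 60K arrays, 1 array per substate. Per the file headers, Feature Extraction 11.5.1.1 (protocol GE1_1105_Oct12, design annotated on hg19) gave each spot a background-subtracted intensity, its error and flags. The authors deposited these intensities and a matrix of log2 values centred on the 75th percentile in GeneSpring GX. Those deposited log2 values differed from the values computed here by a constant per array within 0.01 for 58201 of 58201 probes. Here the log2 intensity was used with a floor of 1 (reached by 0 spots). Outlier spots were dropped, repeated spots were averaged per probe, and each array was centred on its 75th percentile. No test was made, as 1 array per substate leaves the precision unknown. The SD of a difference between single spots, from probes printed repeatedly, was 0.07 (log2). The scanner error used here was larger. A probe well above background on 1 array was given a bound against the lowest signal well above background. Probes were named through RefSeq accessions (GRCh38.p14 table, 31104 probes matched), so further probes of these genes may be unnamed. The members and lists were chosen with earlier results of these data known. Named were all members, related genes past 2-fold and up to 3 with the highest signal per list. Further related genes were named after their values had been seen, as said where they occur. Normexp used limma 3.58.1 on the median spot and background intensities, and not on the background-subtracted intensity of the main values. Loess used statsmodels 0.14.6 (span 0.3). The calculation was tested on simulated data.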

Additional observations from a re-analysis of the deposited data

How the results depend on the processing

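The differences of the 10 genes kept their sign under the 7 alternatives run, and of 142 recomputed values 11 moved by more than the scanner error (for counts, by over 1.5 times) and 4 changed sign. Several alternatives could hardly move the members, so these totals say little about how robust the differences are. The deposited values and median centring differ from the main values by a constant per array. Keeping outlier spots left the member differences as they were, and averaging all probes could alter SPINK5 only. Normexp correction moved SPINK5 to -0.60, TFPI to 0.94 and TMPRSS2 to -0.36, left 1 member probe 2-fold or more higher and 1 lower, and gave 6 member probes past the lower Z-score limit, where 3.5% of all probes were. Averaging all 3 SPINK5 probes gave -0.67, because the probe near background entered the mean. Quantile normalisation and loess centring each gave 6 member probes 2-fold or more lower in place of 3, while over all probes 500 and 621 were lower in place of 553. The Z-score gave 6 lower member probes when its SD came from median deviations (9.99% of all probes) and 6 over probes well above background on both arrays (3.04% of these). The median of the coagulation list turned to -0.03 under quantile normalisation, -0.07 under loess centring and -0.01 with outlier spots kept, and that of the other membrane-tethered proteases turned to 0.07 under normexp correction. Over all probes, normexp correction left 89 higher and 63 lower in place of 514 and 553. The cause of these shifts was not tested. Naming probes by a gene name column was not run, as the scanner files used here carry accessions only. No paired analysis was possible because a single array stood for either substate and nothing was tested.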
